A study of Mus musculus with 8 samples.

Results

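The 38 genes described here encode the actin cytoskeleton and the contractile apparatus of smooth muscle, from the actins themselves to their motors, crosslinkers, adhesion partners and regulators. They were looked up by symbol from a list made with earlier results of these data known, and all 38 were found among the 32108 genes of the table. Expression was measured by RNA-seq of total RNA in fibroblasts of mouse embryos (MEFs, strain 4F2A), in which doxycycline switches on 4 factors, c-Myc, Klf4, Oct4 and Sox2, that can reprogramme somatic cells to pluripotency. Per the labels the cells came from homozygous male 4F2A embryos of 13.5 dpc and were grown in a medium with KnockOut Serum Replacement, 1000 U/mL LIF and 2 µg/mL doxycycline, added on D0, with fresh medium each day. Cells were taken after 2, 4, 6 and 8 days of the drug (D2, D4, D6 and D8), with 2 libraries each. All 4 groups carried the factors and received the drug; no library from day 0 and none without doxycycline was analysed here, although the titles call every sample a control ("Ctr"). Per its title, the series asks how stages of reprogramming differ. The labels do not state that the 2 libraries of a day were separate cultures. The p-values therefore set differences between days against a spread between libraries of the same day that may be only technical.

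Actin filaments are polymers of actin subunits that tropomyosins, calponins and related proteins decorate, that nonmuscle or smooth muscle myosin II pulls on, and that vinculin, talin and zyxin connect to the matrix at focal adhesions. Fibroblasts in culture build thick contractile stress fibres, and activated fibroblasts also use smooth muscle genes such as Acta2 and Tagln. Serum response factor (SRF), which binds the CArG box in promoters, and its partners of the myocardin family activate many of these genes, and the MRTF partners are themselves held back by free actin. Loss of the fibroblast state is known as an early event of reprogramming.

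The libraries held 19409936 to 20161021 counted reads, and 20784 to 22080 genes were above 0. Values are CPM, reads per 1000000 counted reads. A count of 0 allows up to 3 reads, 0.149 to 0.155 CPM, which covers counting error only. Of the members, 37 passed the filter of at least 1 CPM in 2 libraries, and only Myocd did not. Fibroblast markers were present in every library, with the 12 genes of that list summing to at least 34710 CPM. The label of male embryos was not followed by the sex-linked genes checked: Xist lay between 702 and 1240 CPM, and Ddx3y, Kdm5d, Eif2s3y and Uty did not exceed 0.333 CPM in any library. That held for all 4 days, so it does not separate the groups compared.

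Nearly the whole group was higher on D2 than on any later day. Together the 38 genes took 2.67% and 2.62% of the counted reads in the D2 libraries, 1.06% and 1.08% in D4, 0.929% and 0.949% in D6, and 0.930% and 0.908% in D8. In 36 of the 38 genes both D2 libraries were above all 6 later libraries, and the exceptions were Smtn and Synpo2. The 36 include Myocd, which had only 7 and 8 reads in D2. The share of all genes with this order of libraries was not computed. On D4 the mean CPM was under 50% of D2 in 28 of the 37 members that passed the filter. It was under 25% in 10 (Acta1, Acta2, Cnn1, Lmod1, Tagln, Myh11, Myl9, Des, Vcl and Zyx). The shares of all tested genes under these limits were not computed. In limma's moderated test, with Benjamini-Hochberg adjustment across the 15358 genes tested and calls at an adjusted p under 0.05, 36 of 37 tested members fell from D2 to D4 and 1, Smtn, rose. The background was 21.7% of all tested genes called lower and 40.9% called higher (3330 and 6276 genes). The median change was -1.31 on the log2(CPM + 1) scale for the members and 0.11 for all tested genes. Median-of-ratios scaling moved the latter to 0.01 and the calls to 5031 higher and 4651 lower (52% higher, against 65.3%), and quantile normalization to 4407 and 4958 (47.1% higher); under both, 36 members were lower and 1 higher. In bulk samples, fewer cells of a type and less RNA per cell cannot be told apart.

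**Figure D1:**
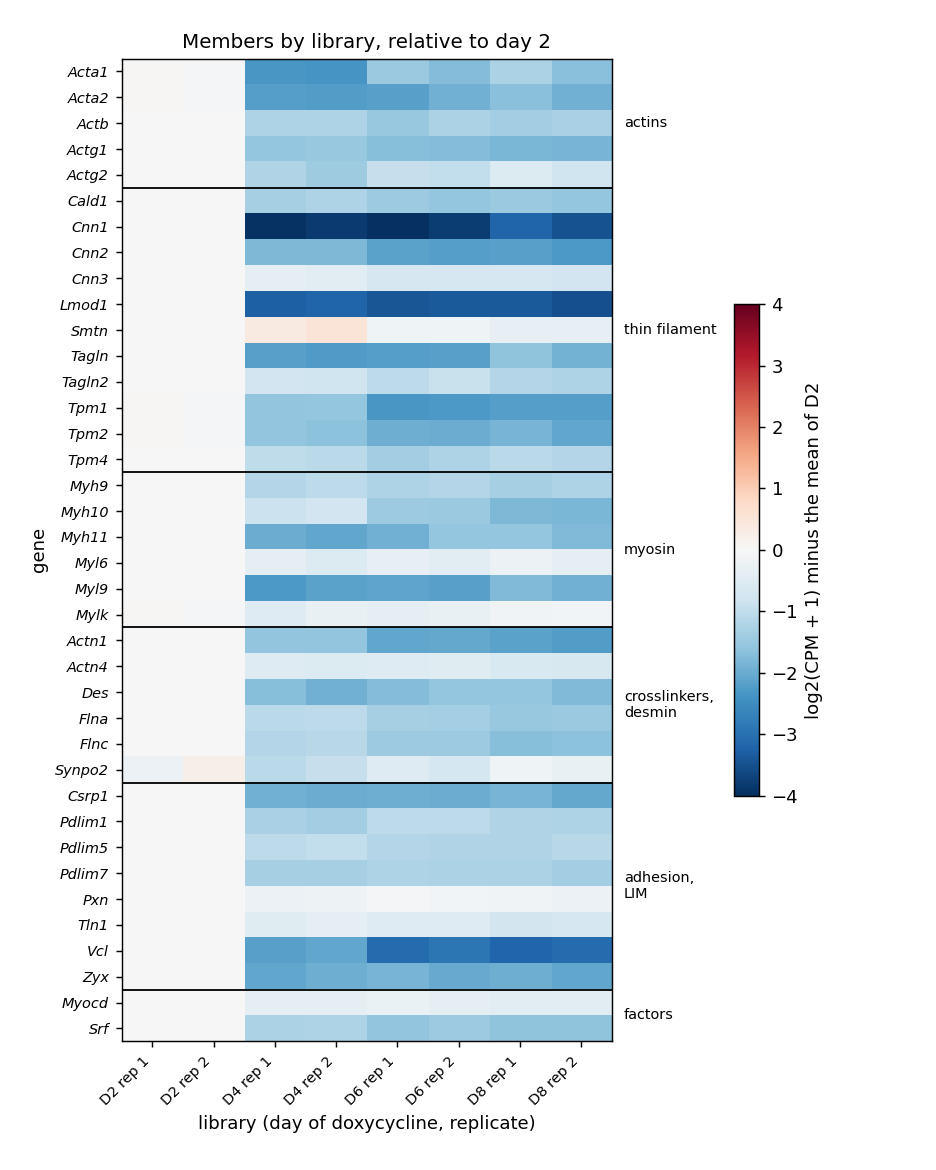
Colour shows log2(CPM + 1) of each of the 38 genes (rows, by role) in each of the 8 libraries (columns), minus the gene's mean on D2; blue is lower and red higher than D2. The 6 later libraries are blue for nearly every gene, deepest for Cnn1, Lmod1 and Vcl, and only Smtn on D4 is red after D2.

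The CArG box has 2 C, 6 A or T and 2 G. It was searched on both strands in the RefSeq windows of 250 bases before to 50 bases after each gene's start (GRCm38.p6). Of the 38 members 32 had a window, and Actb, Actg2, Tagln, Pxn, Myh11 and Myocd had none in that table. An exact box stood in 7 of those 32 genes (21.9%; 18.9% of their 37 windows) and in 535 of all 32851 windows (1.63%). The 7 stretches are shown because SRF is a member and the box is its known site; capitals mark the box, and each is written 5′ to 3′ on the strand of its gene.
Myl9 (chr2:156775283-156775332, + strand, box starting 161 bases before the start): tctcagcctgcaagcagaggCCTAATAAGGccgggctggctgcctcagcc
Acta1 (chr8:123894819-123894868, - strand, 73 bases before): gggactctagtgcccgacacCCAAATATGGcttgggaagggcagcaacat
Cnn2 (chr10:79988524-79988573, + strand, 56 bases before): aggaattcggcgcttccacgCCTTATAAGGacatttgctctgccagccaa
Myl6 (chr10:128493030-128493079, - strand, 50 bases before): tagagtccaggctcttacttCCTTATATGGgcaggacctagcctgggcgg
Actg1 (chr11:120348556-120348605, - strand, 90 bases before): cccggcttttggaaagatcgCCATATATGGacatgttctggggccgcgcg
Vcl (chr14:20929151-20929200, + strand, 227 bases before): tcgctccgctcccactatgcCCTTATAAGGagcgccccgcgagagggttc
Srf (chr17:46556195-46556264, - strand, 82 and 62 bases before): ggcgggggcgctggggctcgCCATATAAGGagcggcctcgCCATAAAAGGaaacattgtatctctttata
From D2 to D4 these 7 genes changed by between -0.45 (Myl6) and -2.35 (Acta1) on the log2 scale; 36 of the 37 tested members fell, with or without a box. With 1 mismatch allowed, a choice made after the data were seen, 13 of the 32 genes (40.6%) and 21.1% of all windows had a match. Acta2 then had 2 sites, CCCTATATGG at 84 bases and CCTTGTTTGG at 34 bases before the start. A match is a description of letters and says nothing of binding in these cells.

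All 5 actins fell from D2 to D4, with changes of -1.24 to -2.35 on the log2(CPM + 1) scale and a median of -1.53. Acta2, the actin of vascular smooth muscle and of activated fibroblasts (chr19:34241090-34255590, mm10), was at 2448 and 2340 CPM in D2, 517 and 507 in D4, 534 and 625 in D6, and 752 and 628 in D8. The D2 libraries stood far above the rest, the libraries of D4 were the lowest, and those of D6 and D8 did not overlap with D4. The change to D4 was -2.22 (SE 0.084, adjusted p = 1.37e-10 in limma), and D8 stood at 28.8% of the D2 mean. Actb, the main nonmuscle actin (chr5:142903115-142906754), was at 2092 and 2037 CPM in D2 and between 723 and 880 in the 6 later libraries, with those of D6 and D8 overlapping. It fell by 1.24 (SE 0.070) to D4, and no later step was called with all libraries.

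Actg1, the second nonmuscle actin (chr11:120345690-120348542), was at 1702 and 1710 CPM in D2, 578 and 602 in D4, 524 and 508 in D6, and 481 and 474 in D8. Its days did not overlap, each lower than the day before. It fell by 1.53 (SE 0.048) to D4 and by 0.19 to D6 (adjusted p = 0.00711 in limma), and the latter missed the threshold without D6 replicate 2 (-0.17, adjusted p = 0.0545). Actg2, the actin of visceral smooth muscle (chr6:83512905-83536265), was at 165.9 and 169 CPM in D2, 72.2 and 61.7 in D4, 88.2 and 83.6 in D6, and 114 and 95.9 in D8. Acta1, the skeletal muscle actin (chr8:123891769-123894751), was at 60.0 and 56.2 CPM in D2, 10.8 and 10.4 in D4, 20.3 and 16.7 in D6, and 23.55 and 17.4 in D8. In both genes D4 was the lowest day and D2 the highest. Both rose from D4 to D6, Actg2 by 0.36 (SE 0.082, adjusted p = 0.00418 in limma) and Acta1 by 0.75 (SE 0.121, adjusted p = 0.000411).

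Per length (CPM per kb of exon), Acta2 made up 41.2% ± 0.571 of the summed mRNA of the 5 actins in D2, 28.0% ± 0.238 in D4, 32.15% ± 1.37 in D6 and 35.65% ± 2.93 in D8 (SD, n = 2). The share of Actb was 29.1% ± 0.0263 in D2 and 39.3% ± 0.120 in D4, and the share of Actg2 was 4.06% ± 0.124 in D2 and 7.65% ± 0.594 in D8. With the longest transcript in place of all exons, a choice made after the data were seen, the share of Acta2 on D2 was 35.7% and on D4 23.6%, in the same order of days. These shares are descriptions, with no test.

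**Figure D2:**
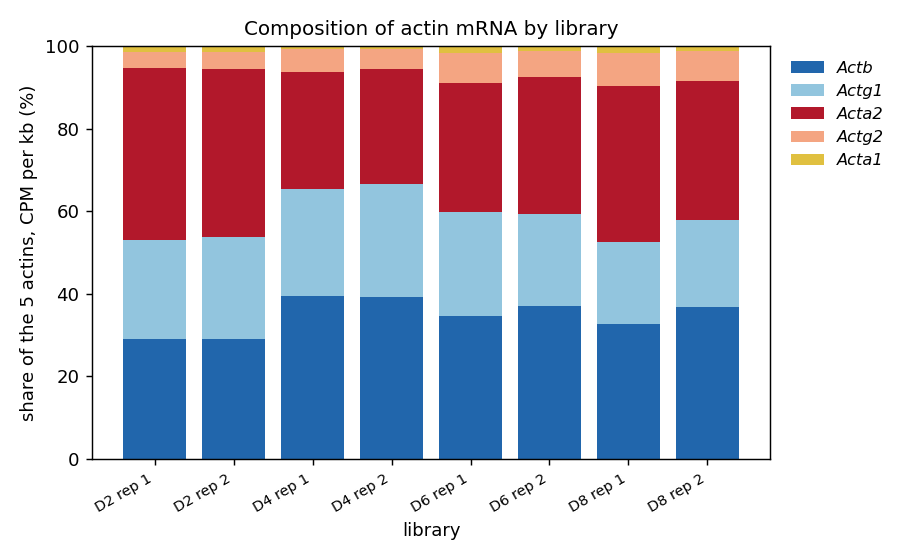
Stacked bars show the share (%) of each actin gene in the summed CPM per kb of the 5 actins, with a bar for each library. The Acta2 segment is largest in the D2 libraries (41.6% and 40.8%) and smallest in the D4 libraries (28.2% and 27.9%).

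The 11 genes of proteins that coat or cap the thin filament had the widest range of changes from D2 to D4. It ran from -3.90 to 0.44 on the log2 scale, with 10 lower and 1 higher. Cnn1, the calponin of smooth muscle (chr9:22099216-22109630), was at 142 and 138.5 CPM in D2, 8.04 and 8.92 in D4, 7.28 and 9.11 in D6, and 14.4 and 11.6 in D8. All later libraries were far below D2, and D8 lay above D4 and D6. Its change to D4, -3.90 (SE 0.110, adjusted p = 1.24e-11 in limma), left 6.04% of the D2 mean, the lowest share of the 37 tested members.

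Lmod1, a leiomodin that nucleates actin filaments in smooth muscle (chr1:135324807-135368065), was at 34.9 and 36.4 CPM in D2, 2.80 and 3.01 in D4, 2.41 and 2.56 in D6, and 2.58 and 2.20 in D8. It fell by 3.23 (SE 0.106, adjusted p = 3.85e-11 in limma) to D4, and no later step was called. Tagln, or SM22, an actin-binding protein of smooth muscle (chr9:45929619-45936058), was at 449 and 448 CPM in D2, 98.97 and 91.98 in D4, 97.4 and 97.8 in D6, and 147 and 120 in D8. It fell by 2.22 (SE 0.075) to D4, and the D8 libraries were above those of D4 and D6.

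Smtn, smoothelin, a filament protein of contractile smooth muscle (chr11:3517523-3540612), was the exception. It was at 42.1 and 43.8 CPM in D2, 55.9 and 61.2 in D4, 38.4 and 37.7 in D6, and 34.1 and 33.7 in D8. D4 was highest and did not overlap with any other day. It rose by 0.44 (SE 0.062, adjusted p = 3.73e-05 in limma) to D4, fell by 0.61 (adjusted p = 8.82e-06) to D6, and its change from D2 to D8 was -0.33 (adjusted p = 0.000303).

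The genes of the tropomyosins, coiled coils that lie along the filament, all fell to D4. Tpm1 was at 2209 and 2035 CPM in D2, 702 and 730 in D4, 422 and 430 in D6, and 464 and 457 in D8, and it fell at both the first step (-1.57, SE 0.053) and the second (-0.75, adjusted p = 5.28e-07 in limma). Tpm2 was at 420.0 and 392 CPM in D2 and at 136 and 131 in D4. Tpm4, mostly nonmuscle, was at 735 and 746 CPM in D2 and at 363 and 347 in D4, where it had 47.9% of its D2 mean against 33.75% for Tpm1. Cald1, caldesmon, an inhibitor of the myosin ATPase on actin, fell by 1.28 (SE 0.054). The broadly expressed relatives Cnn2, Cnn3 and Tagln2 fell by 1.80, 0.43 and 0.78, with adjusted p of at most 3.72e-06 in limma, so within the calponins the D4 share of the D2 mean ran from 6.04% (Cnn1) over 28.6% (Cnn2) to 74.1% (Cnn3).

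**Figure D3:**
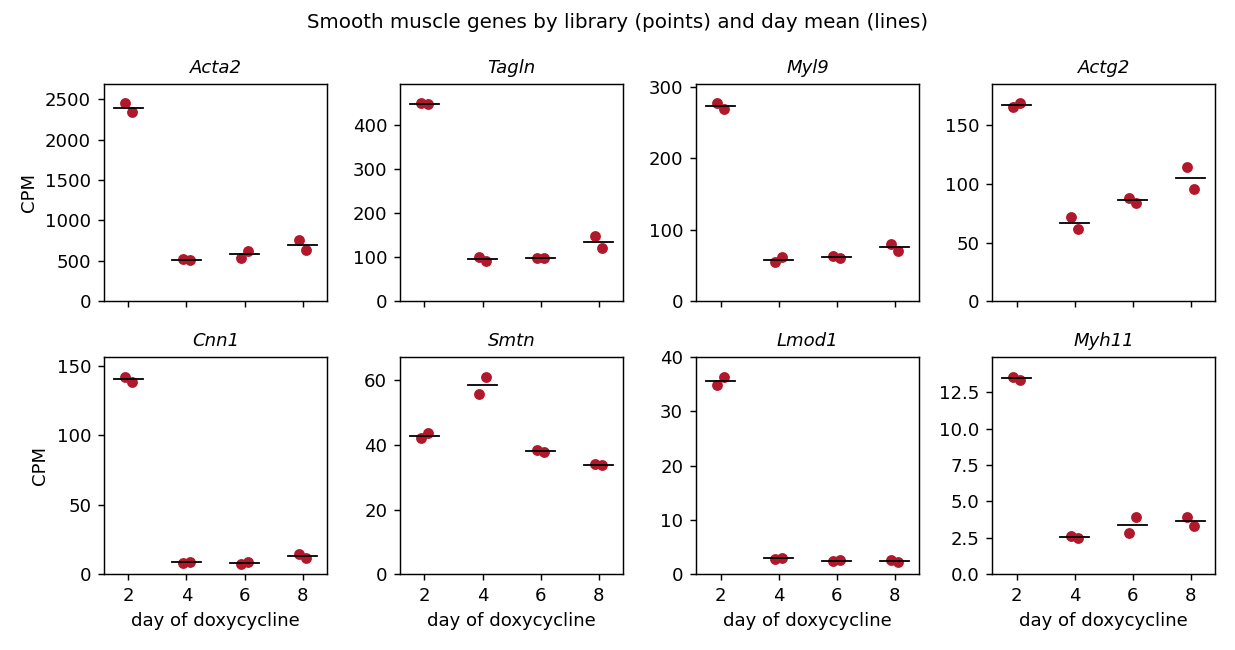
Points are CPM in each library and lines are day means for 8 smooth muscle genes against day of doxycycline; each panel has its own linear axis from 0. In 7 panels D2 is the highest day, and Smtn peaks on D4 (55.9 and 61.2 CPM).

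All 6 myosin genes fell from D2 to D4, with a median of -0.97 on the log2 scale. Myl9, the regulatory light chain of smooth muscle and nonmuscle myosin (chr2:156775420-156781658), was at 277 and 269 CPM in D2, 54.6 and 61.0 in D4, 62.4 and 59.7 in D6, and 80.0 and 70.6 in D8. It fell by 2.22 (SE 0.067, adjusted p = 1.97e-11 in limma) to D4, and the D8 libraries were above all of D4 and D6. Myh11, the smooth muscle heavy chain and a defining gene of that cell type (chr16:14194535-14291372), was at only 13.6 and 13.4 CPM in D2 and between 2.46 and 3.96 CPM in the 6 later libraries, and it fell by 2.03 (SE 0.130) to D4.

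Among the nonmuscle heavy chains, Myh9 (chr15:77760587-77842175) was at 1859 and 1796 CPM in D2 and between 722 and 876 in the later libraries, with a change of -1.12 (SE 0.060) to D4. Myh10 (chr11:68691559-68816632) was at 422 and 421 CPM in D2, 232 and 248 in D4, 154 and 151 in D6, and 121 and 118 in D8. Its days did not overlap. It fell at each of the 3 steps, by 0.81, 0.65 and 0.35 (adjusted p = 8.79e-09, 6.49e-07 and 0.00107 in limma), as only Tagln2 and Flnc did besides. The essential light chain Myl6 fell by 0.45. Mylk, the kinase that activates the regulatory light chain, was low, at 8.41 and 7.89 CPM in D2 and 5.42 and 6.52 in D4. It fell by 0.40 (adjusted p = 0.00573 in limma), but without D4 replicate 1 the change was -0.28 (adjusted p = 0.0602).

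All 6 genes of crosslinkers, filament scaffolds and desmin fell from D2 to D4, with a median of -1.10. Actn1, an α-actinin of stress fibres (chr12:80167547-80260371), was at 1049 and 1039 CPM in D2, 349.7 and 352 in D4, 245 and 250.1 in D6, and 234 and 219 in D8, and fell by 1.57 (SE 0.048) and then 0.50 (adjusted p = 5.39e-06 in limma). Its paralog Actn4 was at 1279 and 1250.0 CPM in D2 and between 818 and 908 later, a change of -0.53 to D4. Flna, the filamin of nonmuscle cells, was at 2725 and 2728 CPM in D2 and 1286 and 1324 in D4, and Flnc, the filamin of striated muscle, at 581 and 578.5 and at 258 and 269.8. Their changes to D4 were -1.06 and -1.13. Des, the intermediate filament protein of muscle, was at 6.87 and 6.97 CPM in D2 and at 1.103 to 1.70 CPM later. Synpo2, a synaptopodin of actin bundles, was at 4.315 and 6.325 CPM in D2, 1.95 and 2.31 in D4, 3.39 and 2.87 in D6, and 4.53 and 4.10 in D8, where it overlapped with D2.

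All 8 adhesion and LIM domain genes fell from D2 to D4, by -0.23 to -2.14 on the log2 scale. Vcl, vinculin, which ties actin to focal adhesions (chr14:20929398-21033676), was at 1009 and 998 CPM in D2, 219.6 and 235 in D4, 119 and 133 in D6, and 111 and 118 in D8. It fell by 2.14 (SE 0.059) and then 0.85 (adjusted p = 4.38e-07 in limma). By D8 it held 11.4% of its D2 mean, a change of -3.12 (SE 0.059, adjusted p = 1.37e-13). Zyx, zyxin, a tension-dependent adhesion protein (chr6:42349630-42360213), was at 873 and 871 CPM in D2, 206 and 224 in D4, 239.7 and 216 in D6, and 222 and 206 in D8. It fell by 2.02 (SE 0.061) to D4 and no later step was called.

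Csrp1, a LIM protein of smooth muscle and fibroblasts, followed the same course, at 615 and 613.5 CPM in D2 and 149 to 168 CPM in the later libraries. The PDZ and LIM protein genes Pdlim1, Pdlim5 and Pdlim7 fell by 1.33, 1.02 and 1.32. The genes of talin and paxillin, core parts of integrin adhesions, moved least: Tln1 fell by 0.43 (SE 0.053) and Pxn by 0.23 (SE 0.050, adjusted p = 0.00147 in limma). In D8 Pxn had 87.7% of its D2 mean.

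The 2 transcription factor genes were both higher on D2. Srf (chr17:46548329-46556175) was at 74.3 and 75.95 CPM in D2, 30.7 and 31.5 in D4, 24.4 and 27.0 in D6, and 24.2 and 24.1 in D8. It fell by 1.25 (SE 0.065, adjusted p = 2.95e-09 in limma) and again by 0.27 to D6 (adjusted p = 0.00594), a step that missed the threshold without D6 replicate 1 (-0.20, adjusted p = 0.0704). Myocd, which encodes myocardin, the SRF partner of smooth and cardiac muscle (chr11:65176561-65269989), gave 7 and 8 reads in D2, 1 and 1 in D4, 3 and 1 in D6, and 0 and 0 in D8. Only the D2 values were above the floor of 3 reads, and the gene was not tested.

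After D4 the changes were smaller and had both directions. From D4 to D6 4 members rose (Acta1, Actg2, Pdlim1 and Pxn), 16 fell and 17 were not called, where 25.2% of all tested genes were called higher and 12.6% lower. The median change was -0.09 for the members and 0.07 for all tested genes. Under median-of-ratios scaling 2725 genes were higher and 2873 lower (48.7% of calls higher, against 66.7%), with 3 members higher and 18 lower. Pxn changed by only 0.14 (adjusted p = 0.0487), and leaving out any 1 library of D2, D4 or D6 gave 0.11 to 0.16 with adjusted p between 0.065 and 0.178. Cald1 and Pdlim5 missed the threshold without D6 replicate 2 (-0.17 and -0.16, adjusted p = 0.0683 and 0.0728), Pdlim5 also without D4 replicate 2 (-0.13, adjusted p = 0.0833), and Tagln2 without D6 replicate 1 (-0.13, adjusted p = 0.126, all in limma). Calls gained were Acta2 (0.29) and Myh11 (0.47) without D6 replicate 1, Actb (-0.28) without D6 replicate 2, Tln1 (-0.16) without D4 replicate 1 and Synpo2 (0.40) without either D2 library.

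From D6 to D8 3 members rose, all of them listed here as smooth muscle genes, though other cells also use Myl9. Cnn1 rose by 0.61 (SE 0.110, adjusted p = 0.00621 in limma), Tagln by 0.44 (SE 0.075, adjusted p = 0.00442) and Myl9 by 0.30 (SE 0.067, adjusted p = 0.0194). Another 3 fell, Tagln2 (-0.23), Myh10 (-0.35) and Flnc (-0.21). The background was 4.72% called higher and 4.39% called lower, and the medians were -0.04 for the members and -0.00 for all tested genes. Of these 6 calls, 4 were lost when single libraries were left out. Without D8 replicate 1, Cnn1 changed by 0.47 (adjusted p = 0.0651), Myl9 by 0.21 (adjusted p = 0.148), Tagln2 by -0.25 (adjusted p = 0.0608) and Flnc by -0.17 (adjusted p = 0.115). Without D6 replicate 1, Cnn1 changed by 0.46 (adjusted p = 0.0549) and Myl9 by 0.33 (adjusted p = 0.0573), and without D6 replicate 2 Myl9 changed by 0.26 (adjusted p = 0.111) and Tagln2 by -0.16 (adjusted p = 0.141). Flnc was lost without D6 replicate 1 or 2 (adjusted p = 0.0852 and 0.0817) and Tagln2 without D8 replicate 2 (-0.21, adjusted p = 0.0966). Tagln and Myh10 were called whichever library was left out. Tagln missed the threshold with no filter on low values (adjusted p = 0.0818) and with no intensity trend (adjusted p = 0.0512, both in limma). Calls gained were Acta2 (0.38) and Actg2 (0.41) without D8 replicate 2, Tpm4 (0.26) without D6 replicate 2, and, without either D4 library, Actg2 (0.28), Tpm4 (0.19), Flna (-0.17), Tln1 (-0.17) and Pdlim1 (-0.19).

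Over the whole course, D8 against D2, 35 of 37 tested members were lower and 0 higher, where 23.1% of all tested genes were lower and 47.3% higher. The 2 that were not called in limma were Mylk (-0.13, SE 0.107, adjusted p = 0.288) and Synpo2 (-0.23, SE 0.149, adjusted p = 0.182). Without D2 replicate 1 Synpo2 changed by -0.46 (adjusted p = 0.0198). The median change was -1.52 for the members and 0.17 for all tested genes. Median-of-ratios scaling put the latter at 0.00, the calls at 5514 higher and 5207 lower (51.4% higher, against 67.2%), and it called all 37 tested members lower. The F test of the same fit called all 37 tested members for a difference between days, beside 80.4% of all tested genes. D2 takes part in this comparison and in D4 against D2, so they are not separate evidence.

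Between D4 and D8, a comparison added after the values were seen, members were called in both directions. Of 12 tested genes listed here as smooth muscle genes, some of which (Myl9, Cald1 and Mylk) other cells also use, 7 rose (Acta2, Actg2, Cnn1, Tagln, Myh11, Myl9 and Synpo2), 2 fell (Cald1 and Smtn) and 3 were not called (Des, Lmod1 and Mylk), with a median of 0.38. Of the 23 broadly expressed genes 0 rose and 14 fell, with a median of -0.26, and the largest falls were Myh10, at 49.8% of its D4 mean, and Vcl, at 50.35%. Acta1 rose by 0.87 (SE 0.121) and Flnc fell by 0.54. In all, 8 members rose and 17 fell, where 30.7% of all tested genes were called higher and 18.3% lower, with medians of -0.10 for the members and 0.07 for all tested genes. Median-of-ratios scaling gave 3540 genes higher and 3654 lower (49.2% higher, against 62.6%), with 7 members higher and 18 lower. Tpm1, Tpm2 and Csrp1, a LIM protein gene of smooth muscle and fibroblasts, were counted as broadly expressed, with changes of -0.64, -0.37 and -0.001. The classes were set with earlier results of these data known, and the difference between them was not tested.

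The sizes of the rises were small beside the fall before them. Acta2 rose by 0.42 (SE 0.084, adjusted p = 0.00106 in limma), Tagln by 0.48 (SE 0.075), Cnn1 by 0.56 (SE 0.110), Actg2 by 0.64 (SE 0.082) and Synpo2 by 0.77 (SE 0.149). On D8 Cnn1 stood at 9.27% of its D2 mean, Tagln at 29.8% and Actg2 at 62.7%. The D8 libraries were not alike: replicate 1 was above replicate 2 in all 7 of these smooth muscle genes, for instance at 752 against 628 CPM for Acta2. Myh11, called in the full set (0.38, adjusted p = 0.0287), was not called without D8 replicate 1 (0.28, adjusted p = 0.193) nor without D4 replicate 1 or 2 (adjusted p = 0.0507 and 0.119), nor under median-of-ratios scaling (0.32, adjusted p = 0.0534) or quantile normalization (0.17, adjusted p = 0.319). Among the falls, Myh9 and Pdlim5 were lost without D4 replicate 2 (-0.10 and -0.10, adjusted p = 0.233 and 0.176) and without D8 replicate 1 (-0.11 and -0.10, adjusted p = 0.225 and 0.201). They also missed it with either D2 library left out, at -0.16 and -0.13 with adjusted p between 0.0632 and 0.0671. Myl6 was called without D4 replicate 1 (0.24) or D8 replicate 2 (0.22), and Mylk without D4 replicate 2 (0.38).

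**Figure D4:**
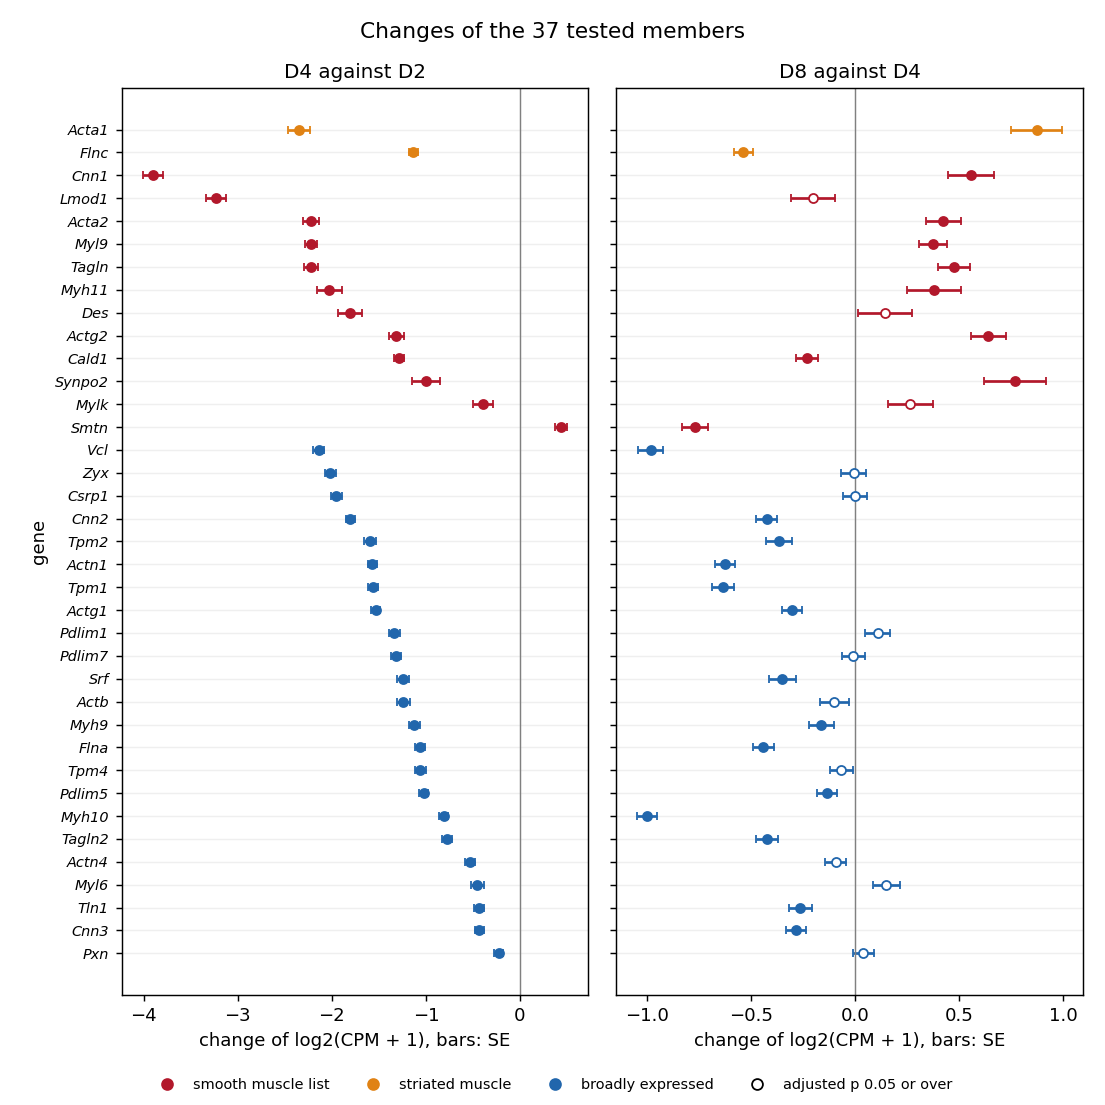
Points are changes of log2(CPM + 1) with SE bars for the 37 tested genes, D4 against D2 on the left and D8 against D4 on the right, coloured by class; open points had an adjusted p of 0.05 or over. Left, all but Smtn lie below 0; right, 7 smooth muscle genes and Acta1 are filled above 0, and no filled point of the broadly expressed class is.

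Ratios within a library between a gene and its paralog show the unequal changes directly. An exact permutation test over all 2520 assignments of 8 libraries to 4 days tested each of 12 pairs for a difference between days. Its smallest possible p is 0.00952, and 11 of the 12 pairs had p under 0.05. Their members were chosen with earlier results of these data known, and no share over other pairs of genes was computed. Of all tested genes, 80.4% were called for a difference between days in limma's F test. Acta2 to Actb had a log2 ratio of 0.21 ± 0.019 in D2, -0.77 ± 0.0078 in D4, -0.44 ± 0.011 in D6 and -0.25 ± 0.245 in D8 (SD, n = 2; exact p = 0.00952, 0.0229 adjusted over the 12 pairs). Tagln to Tagln2 went from -0.12 ± 0.0023 over -1.56 ± 0.045 and -1.33 ± 0.093 to -0.66 ± 0.174, and Cnn1 to Cnn2 from -2.26 ± 0.011 over -4.36 ± 0.095 and -4.03 ± 0.249 to -3.38 ± 0.111 (both exact p = 0.00952). Cnn1 to Cnn3 was at -1.25 ± 0.000469 in D2, -4.72 ± 0.134 in D4 and -3.88 ± 0.150 in D8 (exact permutation p = 0.019), and its change to D4, -3.47, was the widest of the 12 pairs. In all 4 pairs the smooth muscle member was lowest beside its paralog on D4 and between D4 and D2 on D8.

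Other pairs had their extreme ratio on D6 or D8. Actn1 to Actn4 was at -0.28 ± 0.013 in D2, -1.32 ± 0.013 in D4, -1.85 ± 0.016 in D6 and -1.85 ± 0.063 in D8 (SD, n = 2; exact permutation p = 0.0286, adjusted 0.0312). Tpm1 to Tpm4 went from 1.52 ± 0.099 to 0.44 ± 0.047 (exact permutation p = 0.019, adjusted 0.0286) and Tpm2 to Tpm4 from -0.87 ± 0.084 to -1.70 ± 0.082 (exact permutation p = 0.00952). Myh10 to Myh9 was -2.11 ± 0.034 in D2, -1.80 ± 0.022 in D4 and -2.64 ± 0.095 in D8 (exact permutation p = 0.00952). Its change to D4, 0.31, was 0.095 under quantile normalization (exact permutation p = 0.00952).

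The other 4 pairs follow. Flnc to Flna went from -2.23 ± 0.0049 in D2 over -2.30 ± 0.018 in D4 to -2.40 ± 0.031 in D8 (exact permutation p = 0.019), and quantile normalization moved its change to D4 from -0.07 to -0.19 (exact permutation p = 0.0286). Acta2 to Actg1 was at 0.49 ± 0.051 in D2, -0.20 ± 0.062 in D4 and 0.52 ± 0.169 in D8, and Myh11 to Myh9 at -6.98 ± 0.020, -7.89 ± 0.143 and -7.34 ± 0.222 (both exact permutation p = 0.0286). For Actg1 to Actb, from -0.27 ± 0.032 to -0.77 ± 0.076, the exact permutation p was 0.0667. Without 1 library, Acta2 to Actg1 and Myh11 to Myh9 reached exact permutation p of 0.133 and 0.0952, and Actg1 to Actb reached 0.0286 without either D6 library.

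**Figure D5:**
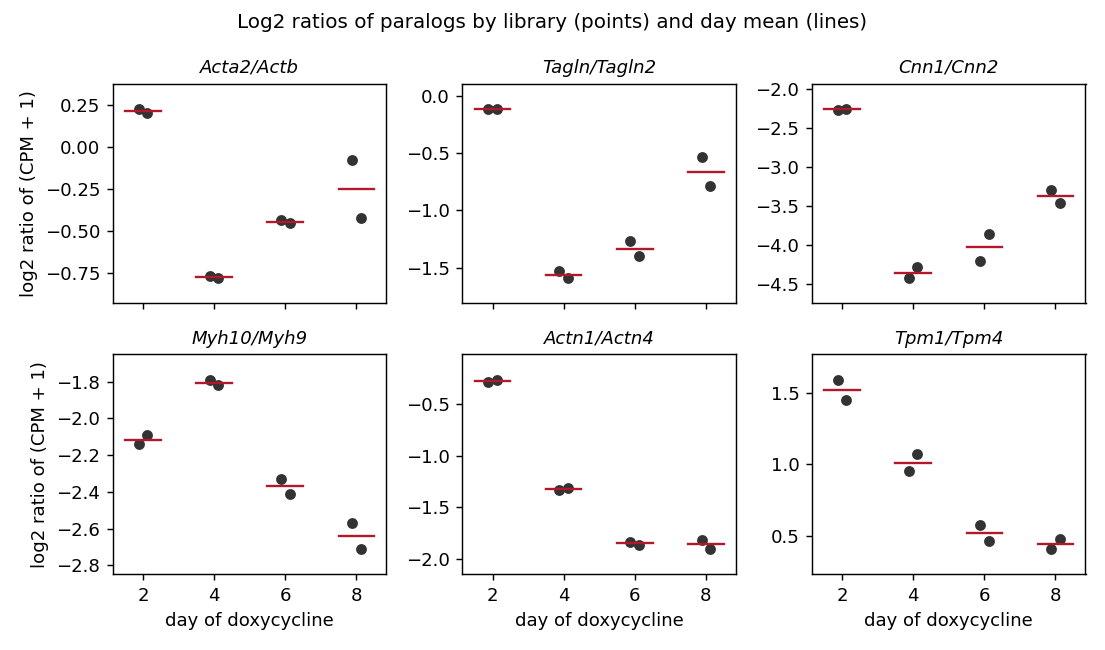
Points are the log2 ratio of (CPM + 1) of 2 paralogs in each library and lines are day means, against day of doxycycline; axes differ between panels. Acta2/Actb, Tagln/Tagln2 and Cnn1/Cnn2 are lowest on D4 (means -0.77, -1.56 and -4.36) and higher on D8, while Actn1/Actn4 and Tpm1/Tpm4 end at their low values.

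In level per length of all exons, the order at the top of the group was the same on D2 and D8: Acta2 (1090 ± 34.7 and 314 ± 40.05 CPM per kb; SD, n = 2), Actb (771 ± 14.5 and 305 ± 12.9), Actg1 (642 ± 2.10 and 180 ± 1.89) and Tpm4 (336 ± 3.50 and 154 ± 6.75). On D8 Acta2 and Actb differed by less than the SD of Acta2, and on D4 Actb was above Acta2 (327 ± 2.80 against 233 ± 3.26 CPM per kb). Actn4 was 12th on D2 and 5th on D8, Cnn2 moved from 8th to 16th, and Vcl from 18th to 25th. On D2 the lowest were Des, Myh11, Mylk, Synpo2 and Myocd, at 1.84 CPM per kb or less, and on D8 Lmod1 (0.605 ± 0.0666) was among them. With the length of the longest transcript, again a choice made after the data were seen, Acta2 was still above Actb on D2 (1176 ± 37.4 against 1075 ± 20.3 CPM per kb) but below it on D8 (339 ± 43.2 against 425 ± 18.0), and Tpm1 was above Tpm4 on D2 (734 ± 42.6 against 348 ± 3.62), so these orders hold for the exon lengths used.

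Of other genes of the pathway, the cofactors and partners of SRF were mixed. Of 12 such genes 7 fell and 4 rose from D2 to D4, where 21.7% of all tested genes were called lower and 40.9% higher. Fhl2 and Fhl1, LIM proteins of muscle, fell by 2.01 and 1.84, from 53.4 ± 0.758 to 12.5 ± 0.0713 CPM and from 352 ± 3.16 to 97.3 ± 0.208 CPM (SD, n = 2). Tgfb1i1 (Hic-5) fell by 1.22 and Csrp2 by 1.19. The largest rise, named after its value was seen, was that of Scai (1.12, adjusted p = 1.07e-08 in limma). Its mean went from 19.6 ± 1.23 to 43.7 ± 0.374 CPM. The actin-sensing partners Mrtfa and Mrtfb, named after their values were seen, went in opposite directions: Mrtfa fell from 70.8 ± 1.88 to 61.3 ± 5.89 CPM (-0.21, adjusted p = 0.0212 in limma) and Mrtfb rose from 44.99 ± 0.921 to 64.4 ± 2.98 CPM (0.51, adjusted p = 6.16e-06).

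Of 22 genes of actin assembly 16 fell and 3 rose in the same step, led by the monomer-binding Tmsb4x (-1.12), Cap1 (-0.99), the Arp2/3 subunit gene Actr3 (-0.90) and Coro1c (-0.62). Gsn, gelsolin, which severs filaments, differed: it was at 745 ± 2.11 CPM in D4 and rose to 1051 ± 22.7 in D6 (0.50, adjusted p = 1.25e-05 in limma). Of 28 tested further filament and adhesion genes (32 listed), 18 fell and 2 rose, among them Ldb3 (-2.28), Nexn (-2.05), Tes (-1.52) and Myl12a (-1.19). By D8 against D2, 23.1% of all tested genes were called lower and 47.3% higher. The SRF partners had 8 lower and 2 higher genes, actin assembly 15 and 6, and the further filament and adhesion genes 22 and 3. The medians from D2 to D4 were -0.25, -0.35 and -0.41 in the same order, beside 0.11 for all tested genes.

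Markers of other cells were read in the same libraries. Of 14 markers of smooth muscle cells and pericytes, 9 reached 1 CPM in any library; the list summed to 439 to 443 CPM in D2, 384 to 413 in D4, 274 to 282 in D6 and 244 to 246.5 in D8. Most of that came from Cspg4, Pdgfrb and Notch3. Of the 8 tested, 6 fell and 2 (Notch3 and Pdgfrb) rose to D4. All 8 were called lower on D8 than on D2, as were 23.1% of all tested genes. Des and Myh11 are in both lists. Of 12 skeletal muscle markers 2 reached 1 CPM, and Myod1 was at 0 in all libraries. The sum was 1.99 to 3.59 CPM over all libraries, with 2.06 to 2.13 in D2 and 3.13 to 3.59 in D8. Of 12 cardiac markers 5 reached 1 CPM, and Nkx2-5 was at 0. The sum was 27.6 to 43.95 CPM over all libraries, with 28.1 to 29.4 in D2 and 35.2 to 43.95 in D8. Of the 5 cardiac genes tested, 3 were called higher and 2 lower on D8 than on D2. Of all tested genes, 47.3% were called higher and 23.1% lower. Of 12 fibroblast markers 8 rose and 4 fell to D4, beside 40.9% of all tested genes called higher and 21.7% lower. Sums were 39240 to 39530 CPM in D2, 47240 to 51590 in D4, 35930 to 39960 in D6 and 34710 to 38360 in D8. Most of these sums came from Col1a1, Col1a2, Col3a1 and Fn1, and they hide opposite changes. By D8 against D2, 5 fibroblast markers were higher, 4 lower and 3 not called, from 6.10 (Lum) to -1.87 (Fn1) on the log2 scale.

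Epithelial, pluripotent and endothelial marker sums were also higher on D8 than on D2. Of 8 epithelial markers 4 reached 1 CPM, and the list summed to 37.98 to 40.68 CPM in D2, 45.6 to 55.1 in D4, 113 to 139 in D6 and 164 to 175 in D8. The keratin gene Krt8 rose by 2.96 to D4 and by 5.21 from D2 to D8, from 2.40 ± 0.336 to 125 ± 13.01 CPM (SD, n = 2), and Cdh1, E-cadherin, by 1.70 and 2.63, while Krt19 fell by 2.31 and 2.65. Of 10 pluripotent markers 3 reached 1 CPM, with sums of 224 to 225 CPM in D2, 304 to 324 in D4, 510.2 to 515 in D6 and 487 to 504 in D8. Nearly all of that came from Pou5f1 and Sox2, which are also induced factors; Nanog did not exceed 0.569 CPM. Of 8 endothelial markers 5 reached 1 CPM, with sums of 71.1 to 73.5 CPM in D2 and 165 to 167 in D8, mostly from Tek (65.3 ± 1.31 CPM in D2 and 162 ± 1.78 in D8; SD, n = 2), which rose, while Cdh5 did not exceed 0.448 CPM. Of 8 macrophage markers 7 reached 1 CPM, with sums of 65.1 to 91.7 CPM in D2 and 66.56 to 77.95 in D8. From D2 to D4, 40.9% of all tested genes were called higher and 21.7% lower. The calls in that step were 2 higher and 1 lower of 4 tested epithelial genes and 3 and 0 of 3 pluripotent genes. For the endothelial genes they were 1 and 2 of 5, and for the macrophage genes 1 and 0 of 7. The part of cell composition in the members' changes was not tested.

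Some members share reads or position with other genes. Reads per gene were not whole numbers in any library for 9 members (Acta1, Acta2, Actb, Actg1, Cnn3, Tagln2, Myh9, Myl6 and Pdlim1), and all 9 share 50-base stretches with transcripts of other genes. The shared part was 56.7% of such stretches for Actg1, 19.8% for Pdlim1, 18.5% for Myl6, 16.4% for Cnn3 and 14.2% for Actb. The levels of these genes are therefore uncertain. It was 0.352% for Acta2 and 2.22% for Acta1. The genes that share stretches with Acta1 include Actb, which had far higher CPM in every library. The part of shared reads in the changes of Acta1 was not tested. Exons of 13 members overlap those of another gene. For Vcl, 25.5% of the exon bases lie on the other strand of Ap3m1, which reached 470 CPM. The share on the other strand was 62.4% for Tagln (Gm48529), 17.7% for Cnn3 (Gm42928) and 16.3% for Smtn (Gm11946). The strand setting of the counting is not given in the sources used here, so such reads cannot be told apart. The table has a single value per gene, so muscle and nonmuscle isoforms of Cald1, Tpm1 or Mylk were not separated.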

How the data were processed

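Total RNA had been extracted with TRIzol and read on a BGISEQ-500 instrument, per the labels. The submitters' processing notes list Trimmomatic 0.39, featureCounts and mm10. Aligner, annotation release and strand setting of the counting: not given in the sources used here. What the authors deposited is a table of CPM values for 32108 genes in 8 libraries, although its name speaks of TPM: each column sums to 1000000, and values are multiples of hundredths of a read. Only 52.8% to 54.3% of the non-zero values were whole reads (within 0.005 read), so no count test was run. All columns belonged to a labelled library (0 to none). GENCODE M21 gave symbols (for 32029 identifiers), coordinates and exon lengths.

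The filter kept the 15358 genes that reached 1 CPM in 2 or more libraries. Their log2(CPM + 1) values entered limma (version 3.58.1, R 4.3.3) with a coefficient for each day, all 8 libraries (4 residual degrees of freedom) and an intensity trend. Tests were two-sided, with Benjamini-Hochberg adjustment across the tested genes. Changes understate the fold of low genes. The fit was tested on simulated data. Other steps used Python 3.11.15 (pandas 2.3.3, numpy 2.4.6, matplotlib 3.10.9).

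The members and lists were chosen with earlier results of these data known. All members could be named; of the other lists, up to 4 called genes with the largest change in D4 against D2, up to 2 in each other contrast, defining markers and the most abundant markers, not all of which are printed. The result of 1 gene list is not reported here. Alternatives were a pseudocount of 0.1, no filter or a filter at 5 CPM, median-of-ratios scaling, quantile normalization, no trend, only the 2 days compared, the replicate block and leaving out each library.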

Additional observations from a re-analysis of the deposited data

How the results depend on the processing

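The fall from D2 to D4 was the steadiest result: of 591 changes of members recomputed for it, 590 kept their call, and 1, Mylk without D4 replicate 1, lost its call. Over all contrasts 2955 changes were recomputed, of which 2847 kept their call, 62 lost it and 46 gained it. The sign differed in 37 of them, of which 0 were called in the reported fit and 0 under the alternative.

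The step from D6 to D8 depended most on the processing, beside 725 genes and 3 members higher and 674 genes and 3 members lower. With no filter on low values 210 genes were higher and 134 lower, with 0 and 1 members; with no intensity trend 323 and 210 genes, with 1 and 1 members; with the filter at 5 CPM 5 members were higher. Leaving out each library in turn gave 232 to 904 genes higher, 191 to 834 lower, 1 to 5 members higher and 1 to 6 lower; the lowest gene counts came without D8 replicate 1. From D4 to D6, no filter left 2 members higher, and quantile normalization gave 2942 genes lower. For D8 against D2, quantile normalization gave 4819 genes higher and 5876 lower. The cause was not tested.

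Deviations of replicate 1 from the day means correlated at -0.10 to 0.21 between days, highest between D4 and D8. Such correlations over all tested genes cannot exclude that the replicate numbers pair the libraries. With the replicate block, 5 members were higher and 5 lower from D6 to D8, and 1 member was higher and 36 lower from D2 to D4.

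For Myh11 to Myh9, quantile normalization gave a change of -1.471 from D2 to D4 (exact permutation p = 0.0571). Leaving out each library gave changes from D2 to D4 of -0.736 to -0.648 for Acta2 to Actg1, -1.005 to -0.803 for Myh11 to Myh9 and -0.332 to -0.255 for Actg1 to Actb. By longest transcript the share of Acta2 among actins was 35.73%, 23.57%, 27.42% and 30.71% on D2, D4, D6 and D8. With 1 mismatch, 13 members had a CArG box. With 2 libraries a day, small changes in genes near the floor, such as Myocd, were not detectable.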
